A study of Mus musculus with 6 samples.

Results

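The numbered Zfp genes are the mouse zinc finger genes whose annotated symbol is Zfp followed by digits only, leaving out Zfp36, which encodes an unrelated protein that destabilises mRNA. Each gene was read from 1 Affymetrix probe set, the one with the highest mean among those annotated to that gene alone, and a gene was kept when that mean over the 6 arrays lay above 5 on the log2 scale. Of 304 numbered Zfp genes measured, 219 were kept, among 10905 genes above the same level and 18192 genes in all. The members were thus chosen by their measured level over both groups, and levels are given here as a description. At the threshold itself Zfp169 (mean 5.01) and Zfp383 (5.02) were just inside, and Zfp629 (4.90) and Zfp618 (4.88) just outside.

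Proteins of the C2H2 zinc finger class bind DNA through tandem fingers, each a short loop held by a zinc ion, and many mouse members also carry a KRAB domain. The KRAB domain recruits Trim28, also called KAP1, which brings the histone methyltransferase Setdb1, HP1 proteins and DNA methyltransferases, and so silences the bound site. Many of these genes lie in clusters of near copies that arose by duplication, and their best-known targets are retroelements and imprinted regions. Other numbered Zfp genes have no such relation and work in transcription, RNA binding or ribosome assembly.

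The study asked what forced expression of EVI1, a zinc finger oncoprotein encoded by Mecom, does to gene expression in blood progenitors. Lin- progenitors, depleted of mature lineages, came from C57BL/6J mice with the rtTA transactivator in the Rosa26 locus, and the labels name the lentiviral vector pRRL.TET.EVI1.IRES.EGFP, which makes EVI1 and EGFP when doxycycline is present. The culture medium contained 50 ng/ml each of Flt3 ligand, interleukin-11 and stem cell factor, with interleukin-3 at 20 ng/ml. Doxycycline at 1 µg/ml followed a day after transduction, and the sort came 20 hours later. RNA of 3 EGFP-positive and 3 EGFP-negative samples was hybridised, 1 array each. The EGFP-negative samples are labelled untransduced, while the design text has a sort of negative or low EGFP cells, and the EGFP-positive samples carry the word untransduced in their descriptions too; the sample titles set the groups. Doxycycline and rtTA were shared by both groups as far as the design text goes. Whether the replicates were separate cultures or mice is not labelled. The p-values therefore cover the spread among the arrays of a group, possibly a technical one.

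The arrays of a group resembled each other (Pearson's r over probe sets 0.989 within EGFP-positive arrays and 0.995 within EGFP-negative arrays) more than those of different groups (0.968 to 0.969). Mecom's brightest probe set averaged 7.97 in EGFP-positive and 8.26 in EGFP-negative arrays (difference -0.29, limma adjusted p = 0.13), and no source used here says whether the vector's EVI1 holds the sequence it matches. Markers of maturing cells moved with the groups. All 21 measured proliferation genes fell in EGFP-positive cells (median -1.78), as did 8 of 8 granulocyte markers (median -3.31), 3 of 3 monocyte markers, 3 of 3 mast cell and basophil markers, and Kit, Cd34 and Flt3 among 4 progenitor markers, whereas 5 of 5 erythroid markers rose (median 1.71). The signal of Actb at its 3' end exceeded that at its 5' end by 1.00 ± 0.03 (SD, n = 3) in EGFP-positive and 0.80 ± 0.05 in EGFP-negative arrays, and that of Gapdh by 1.06 ± 0.04 in EGFP-positive and 0.82 ± 0.02 in EGFP-negative arrays. These values stand beside every result that follows, and their part in it was not tested. In sorted fractions, fewer cells of a type and less RNA per cell cannot be told apart.

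A smaller share of the numbered Zfp genes passed the test than of all genes above the level, and more of their calls were upward. With limma and Benjamini-Hochberg adjustment over all 18192 genes, 49 of 219 members were higher in EGFP-positive cells, 27 were lower and 143 did not pass an adjusted p of 0.05. That is 34.7% of members called, against 47.8% of all genes above the level. Without EGFP-negative replicate 1, 33 members were higher and 17 lower, 22.8% called, against 35.4% of all genes above the level. The upward share was almost that of the background, 22.4% of members against 22.6% of genes, and the downward share was 12.3% of members against 25.2% of genes. Of the members' calls 64.5% were upward, against 47.3% for all genes above the level. The median difference, EGFP-positive minus EGFP-negative, was 0.04 on the log2 scale (quartiles -0.27 and 0.38, range -1.77 to 1.99) for members and -0.03 (quartiles -0.40 and 0.34) for all genes above the level. These are counts of a family chosen with results known, and no set test was made.

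Taken over all levels, the members' changes were also smaller. The median absolute difference was 0.31 for members, with a median standard error of 0.14, and 0.37 for all genes above the level, with a median standard error of 0.11. The gap depended on level. Between levels 5 and 6 it was 0.26 for members against 0.55 for genes, and between 6 and 7 it was 0.37 against 0.49. From 7 to 8 it was 0.39 against 0.41, from 8 to 9 0.37 against 0.41, and above 9 0.30 against 0.30. A call together with at least a 2-fold difference was reached by 12 members, 5.48%, of which 8 were higher and 4 lower, against 16.4% of all genes above the level. Zfp820, Zfp467 and Zfp469 are among these 12 and were above 5 on average only in the group where they were high. With both group means above 5 there were 9 such members, 6 higher and 3 lower (4.33%, against 14.1% of genes). The EGFP-positive and EGFP-negative arrays of each of the 76 called members did not overlap, and neither did those of 24 uncalled members that lay higher and 17 that lay lower in EGFP-positive arrays. Non-overlapping groups were found for 66.3% of all genes above the level, 31.3% with the EGFP-positive arrays higher and 35.0% with them lower. A difference over 1 did not guarantee a call: Zfp667, at -1.03, was the most different member that did not pass. Some members passed the level through 1 group alone. Of the 208 with both group means above 5, 47 were higher and 26 lower, 35.1% called, against 46.5% of the 10401 genes of that kind (21.9% higher and 24.7% lower).

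**Figure D1:**
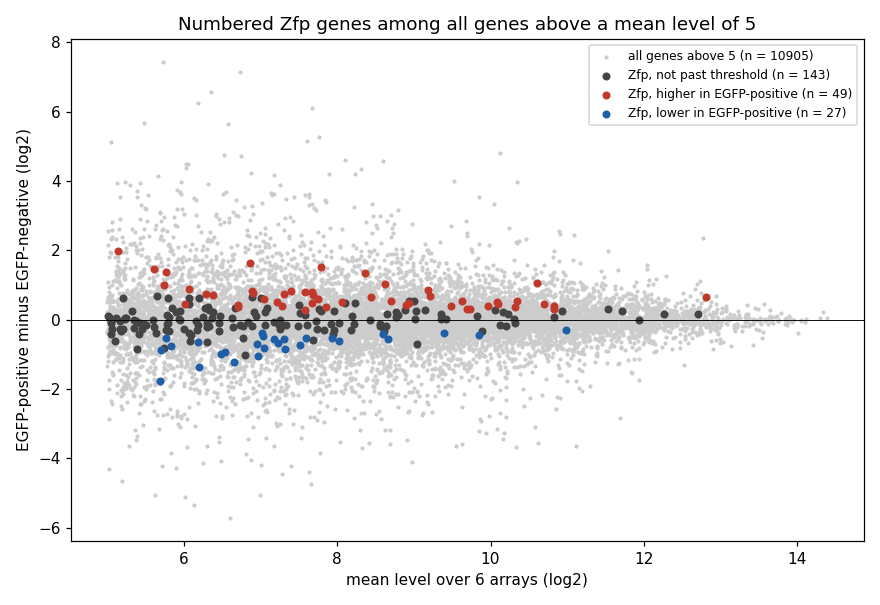
Difference in expression (EGFP-positive minus EGFP-negative, log2, vertical axis) against mean level over the 6 arrays (log2, horizontal axis) for all 10905 genes above a level of 5 (grey) and the 219 numbered Zfp genes (49 higher in red, 27 lower in blue, 143 not past the threshold in dark grey). The Zfp genes lie inside the grey cloud, between -1.77 and 1.99, and above a level of 9 the red points outnumber the blue.

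Numbered Zfp transcripts were dim for this set: their median level was 7.08, against 8.40 for all genes above 5. The counts were therefore set beside those of genes at a like level. Between levels 5 and 6, 4 of 51 members were higher and 4 lower (7.84% each way), against 21.0% and 21.9% of all genes in that band. Between 6 and 7, 9 of 51 members were higher and 7 lower (17.6% and 13.7%, against 19.7% and 25% of genes), and between 7 and 8 it was 13 and 10 of 47 (27.7% and 21.3%, against 22.2% and 24.7%). From 8 to 9, 7 of 28 members were higher and 3 lower (25% and 10.7%, against 24.2% and 27.5% of genes). In each band above 7 the upward share of members was over that of all genes. Above 9, 16 of 42 members were higher (38.1%, against 23.7% of genes) and 3 lower (7.14%, against 25.6%). The median difference in this brightest band was 0.25 for members and -0.02 for all genes. Both directions together, 15.7% of members were called in the dimmest band, against 42.9% of its genes, and 45.2% in the brightest, against 49.2%. Only between 7 and 8 was the members' share the higher, 48.9% against 46.9% of genes. The share of members that fell was under that of all genes in each of the 5 bands.

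**Figure D2:**
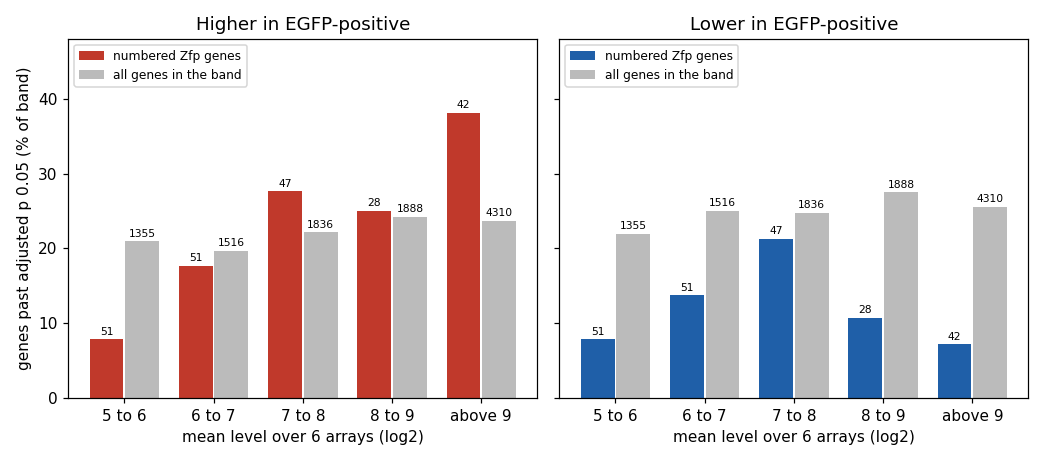
Share of genes past an adjusted p of 0.05 (percent of the band, vertical axis) in bands of mean level over 6 arrays (log2, horizontal axis), higher in EGFP-positive cells on the left and lower on the right; coloured bars are numbered Zfp genes, grey bars all genes of the band, and the number above a bar is the number of genes in it. In the band above 9 the members' upward bar stands at 38.1% and the downward bar at 7.14%.

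The 3 brightest members were Zfp263, Zfp106 and Zfp217. Zfp263, a DNA-binding protein with SCAN and KRAB domains, read 13.14, 13.16 and 13.12 in EGFP-positive arrays, against 12.51, 12.42 and 12.55 in EGFP-negative arrays. The groups were apart with little spread, and the difference was 0.65 (SE 0.08, limma adjusted p = 0.0014). Its other probe set, the brightest of the plain type, gave 1.47. Zfp106, an RNA-binding protein needed by motor neurons, read 12.76, 12.84 and 12.78 in EGFP-positive arrays, against 12.61, 12.60 and 12.64 in EGFP-negative arrays. Zfp217, whose human counterpart is amplified in breast cancer, read 12.37, 12.36 and 12.31 in EGFP-positive arrays, against 12.19, 12.17 and 12.20 in EGFP-negative arrays. Neither of these small differences, 0.17 and 0.15, passed the test (limma adjusted p = 0.13 and 0.16), although the groups of both genes did not overlap.

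A run of rises lay along chromosome 17. In the order of protein-coding genes of the RefSeq assembly GRCm38.p6, with at most 2 other genes between neighbours, the longest run of members held 15 genes, Zfp677 to Zfp946. In it 10 members were higher in EGFP-positive cells, 0 were lower and 5 did not pass, and the median difference was 0.58. The run was singled out after its values were seen, so this count is a description. All 34 members on chromosome 17 gave 14 higher (41.2%) and 3 lower (8.82%). The 15 members of the run are among these 34, and its 10 rises are among the 14. Of the 530 other genes above the level on that chromosome, 24.5% were higher and 23.6% lower, with a median difference of -0.01. Of the 12 largest rises in the family, 7 lay on chromosome 17, and 5 of those (Zfp820, Zfp229, Zfp760, Zfp53 and Zfp946) belonged to the run.

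The largest rise was that of Zfp820, with 6.46, 5.39 and 6.58 in EGFP-positive arrays, against 4.37, 3.78 and 4.30 in EGFP-negative arrays. Its EGFP-negative mean lay under 5, so it is a member through its EGFP-positive arrays alone. The lowest EGFP-positive array lay above all EGFP-negative ones, and the difference was 1.99 (SE 0.35, 3.98-fold, limma adjusted p = 0.0060). Averaged with its other probe set, which read 1.84 and 1.78 in EGFP-positive and EGFP-negative arrays, under the ceiling of the bacterial controls (3.61), the difference was 1.03. Zfp229 read 7.66, 7.89 and 7.50 in EGFP-positive arrays, against 5.77, 5.92 and 6.44 in EGFP-negative arrays, a difference of 1.64 (SE 0.20, 3.12-fold, limma adjusted p = 0.0014). Zfp760 read 8.67, 8.38 and 8.58 in EGFP-positive arrays, against 7.08, 6.92 and 7.11 in EGFP-negative arrays, a difference of 1.51 (SE 0.11, 2.85-fold, limma adjusted p = 0.00020). These genes are next to each other in the gene order, and in none of them did the groups overlap.

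Upstream of them, 4 adjacent members were all called higher. Zfp53 led this stretch at 8.97, 9.39 and 8.75 in EGFP-positive arrays, against 7.59, 7.61 and 7.83 in EGFP-negative arrays, a difference of 1.36 (SE 0.18, limma adjusted p = 0.0020). Its neighbours Zfp52, Zfp948 and Zfp983 gave 0.54, 0.58 and 0.42. The call of Zfp52 was lost when any array other than EGFP-negative replicate 1 was left out, and that of Zfp983 without EGFP-negative replicate 1 or 2 or EGFP-positive replicate 2 or 3, with limma adjusted p up to 0.085 for Zfp52 and 0.11 for Zfp983. Averaged over its probe sets, Zfp948 differed by 0.23 (limma adjusted p = 0.19). At the far end of the run, Zfp946 read 6.48, 6.19 and 6.04 in EGFP-positive arrays, against 5.81, 5.22 and 4.70 in EGFP-negative arrays. The groups did not overlap, yet the spread of the EGFP-negative arrays was wide, and the call (0.99, limma adjusted p = 0.039) was lost without any 1 array except EGFP-negative replicate 1, at up to 0.11. Zfp677, Zfp995 and Zfp994, with differences of -0.03, -0.13 and -0.03, showed no call.

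**Figure D3:**
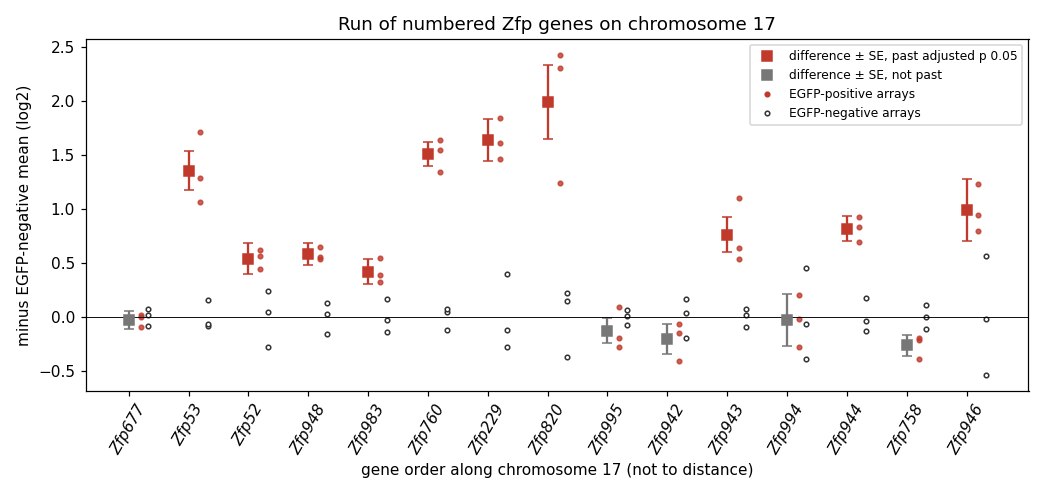
Differences of the 15 members of the chromosome 17 run in gene order (horizontal axis, not to distance), as EGFP-positive minus EGFP-negative on the log2 scale with standard error (squares, red past an adjusted p of 0.05 and grey not), beside the single arrays minus the EGFP-negative mean (filled points EGFP-positive, open points EGFP-negative). From Zfp53 to Zfp820 every member plotted is past the threshold, peaking at 1.99, and further on rises alternate with genes near or below 0.

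Within the run are 2 head-to-head pairs, Zfp942 with Zfp943 and Zfp944 with Zfp758, in which the genes start close together on opposite strands. They are shown because their promoters are near copies of each other while only Zfp943 and Zfp944 were called. The promoters of Zfp943 and Zfp758 matched at 292 of 308 aligned columns (94.8% identity), and those of Zfp942 and Zfp944 at 84.3%, whereas the next most alike pair of the run, Zfp53 and Zfp983, reached 60.5%. The promoter windows of Zfp942 and Zfp943 cover 194 bases in common, and those of Zfp944 and Zfp758 cover 162. The sequences below run from 250 bases before to 50 bases after the annotated start, 5′ to 3′ on the gene's own strand, from RefSeq GRCm38.p6: Zfp943 at chr17:21962309-21962608 on the plus strand, Zfp758 at chr17:22361213-22361512 on the plus strand, Zfp944 at chr17:22361351-22361650 on the minus strand and Zfp942 at chr17:21962415-21962714 on the minus strand. Capitals mark CACGTG, a palindrome known as an E-box, and CCGGAA or its reverse complement TTCCGG, the core of ETS-type sites.
Zfp943: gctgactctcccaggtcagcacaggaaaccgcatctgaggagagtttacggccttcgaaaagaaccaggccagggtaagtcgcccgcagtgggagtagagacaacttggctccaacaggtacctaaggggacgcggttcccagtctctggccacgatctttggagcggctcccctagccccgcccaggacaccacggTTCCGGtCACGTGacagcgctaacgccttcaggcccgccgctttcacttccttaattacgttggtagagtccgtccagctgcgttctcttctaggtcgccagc
Zfp758: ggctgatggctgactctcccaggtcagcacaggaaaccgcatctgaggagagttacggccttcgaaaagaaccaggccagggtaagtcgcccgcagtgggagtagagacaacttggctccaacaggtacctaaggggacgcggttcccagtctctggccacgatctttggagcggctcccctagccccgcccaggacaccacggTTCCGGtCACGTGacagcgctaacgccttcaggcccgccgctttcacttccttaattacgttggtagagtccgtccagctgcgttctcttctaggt
Zfp944: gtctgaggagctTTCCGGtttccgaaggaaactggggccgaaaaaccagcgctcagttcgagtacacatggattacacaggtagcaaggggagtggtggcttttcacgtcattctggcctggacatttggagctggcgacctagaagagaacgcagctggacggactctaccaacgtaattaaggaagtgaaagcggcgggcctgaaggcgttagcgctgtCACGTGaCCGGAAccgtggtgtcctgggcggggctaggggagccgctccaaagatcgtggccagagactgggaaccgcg
Zfp942: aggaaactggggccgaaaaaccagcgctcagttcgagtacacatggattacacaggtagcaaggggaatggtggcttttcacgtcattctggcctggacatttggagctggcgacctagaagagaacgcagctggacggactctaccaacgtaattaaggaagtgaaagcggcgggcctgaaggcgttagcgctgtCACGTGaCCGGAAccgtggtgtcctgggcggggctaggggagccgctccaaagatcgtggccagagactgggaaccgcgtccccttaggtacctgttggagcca

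In all 4 promoters CACGTG lies 1 base from a CCGGAA or its reverse complement. Zfp943 read 7.16, 7.63 and 7.06 in EGFP-positive arrays, against 6.44, 6.60 and 6.54 in EGFP-negative arrays, a difference of 0.76 (SE 0.16, limma adjusted p = 0.014, or 0.053 without EGFP-negative replicate 1). Zfp944 read 7.91, 7.69 and 7.82 in EGFP-positive arrays, against 6.86, 7.17 and 6.95 in EGFP-negative arrays, a difference of 0.82 (SE 0.11, limma adjusted p = 0.0026). Both rose, with no overlap between groups. Their partners were not called. Zfp758 read 4.92, 5.11 and 5.09 in EGFP-positive arrays, against 5.41, 5.30 and 5.19 in EGFP-negative arrays, all lower but close together (-0.26, limma adjusted p = 0.093), at a level just above 5. Zfp942 read 6.60, 6.35 and 6.69 in EGFP-positive arrays, against 6.78, 6.91 and 6.55 in EGFP-negative arrays, which overlap (-0.21, limma adjusted p = 0.31), and its sign changed to 0.25 with its most variable probe set.

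Taking the difference of Zfp943 minus that of Zfp758, whose promoters are most alike, gave 1.02, and Zfp944 minus Zfp942 gave 1.02. Across the shared start regions, Zfp943 minus Zfp942 gave 0.97 and Zfp944 minus Zfp758 gave 1.08. All 4 values come from the same 4 genes, each a called riser minus an uncalled partner, so they are not separate comparisons. These 4 pairs were picked after their values were seen; each reached p = 0.1 in an exact two-sided permutation test over the 6 arrays (0.1 after Benjamini-Hochberg adjustment over the 4), the lowest value this design of 3 and 3 arrays can give. Genes of such clusters are close copies of each other, so a probe set can also read its paralogs, and probe sequences were not used here.

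Of the 12 largest rises, 5 lay on other chromosomes. Zfp521, a multi-finger corepressor of early blood progenitors and a known retroviral insertion site in mouse B-cell tumours, read 6.46, 6.29 and 6.62 in EGFP-positive arrays, against 4.999, 5.05 and 5.22 in EGFP-negative arrays. The groups were well apart, with a difference of 1.36 (SE 0.12, 2.57-fold, limma adjusted p = 0.00037). Zfp467, a factor that promotes adipocyte formation, read 6.55, 6.47 and 6.00 in EGFP-positive arrays, against 4.92, 4.95 and 4.76 in EGFP-negative arrays, a difference of 1.47 (SE 0.16, 2.76-fold, limma adjusted p = 0.00096). Zfp710 was bright and tight, at 11.19, 11.06 and 11.14 in EGFP-positive arrays, against 10.08, 9.96 and 10.17 in EGFP-negative arrays (1.06, SE 0.09, limma adjusted p = 0.00036). Both remaining genes, Zfp445 and Zfp949, lie on chromosome 9, where 6 of 9 members were higher and 0 lower, while of the 613 other genes above the level there 21.5% were higher and 28.1% lower. Zfp949 read 7.20, 7.29 and 7.42 in EGFP-positive arrays, against 6.44, 6.27 and 6.74 in EGFP-negative arrays (0.82, limma adjusted p = 0.0061), and 1.65 with its most variable probe set. Outside the long run, chromosome 17 also gave Zfp945 (1.02, limma adjusted p = 0.0024) and Zfp870 (0.89, limma adjusted p = 0.013).

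The 12 largest falls were spread over 8 chromosomes, with no chromosome holding more than 3. Zfp469, whose human counterpart is mutated in brittle cornea syndrome, fell most, at 4.78, 4.48 and 5.13 in EGFP-positive arrays, against 6.73, 6.54 and 6.45 in EGFP-negative arrays. Its EGFP-positive mean lay under 5, so it is a member through its EGFP-negative arrays alone. The groups were far apart, and the difference was -1.77 (SE 0.18, 3.42-fold lower, limma adjusted p = 0.00068). Zfp709 read 5.29, 5.80 and 5.46 in EGFP-positive arrays, against 6.94, 6.73 and 6.95 in EGFP-negative arrays (-1.36, SE 0.15, limma adjusted p = 0.00097). Zfp623 read 6.63, 6.69 and 6.03 in EGFP-positive arrays, against 7.63, 7.37 and 7.47 in EGFP-negative arrays (-1.04, SE 0.19, limma adjusted p = 0.0078). These groups were separate as well. Zfp719, Zfp446 and Zfp395 also fell, by 0.95, 0.75 and 0.74, the last at 7.26, 7.09 and 7.09 in EGFP-positive arrays against 7.86, 7.92 and 7.87 in EGFP-negative arrays (limma adjusted p = 0.0012).

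Several of the falls were fragile. Zfp428 read 6.68, 5.56 and 5.90 in EGFP-positive arrays, against 7.14, 7.43 and 7.25 in EGFP-negative arrays (-1.23, limma adjusted p = 0.018), and Zfp386 read 6.17, 6.48 and 5.31 in EGFP-positive arrays, against 6.78, 7.08 and 7.08 in EGFP-negative arrays (-0.998, limma adjusted p = 0.046). In both, 1 EGFP-positive array lay far from the other two. The call of Zfp428 was lost without EGFP-negative replicate 2 or 3 or EGFP-positive replicate 3 (limma adjusted p up to 0.064), and that of Zfp386 without any EGFP-negative array or EGFP-positive replicate 1 (up to 0.13); without EGFP-positive replicate 3 the difference of Zfp386 was -0.66. With each array also shifted to the same median or quantile-normalised again, Zfp386 did not pass. Zfp637 (-0.88, limma adjusted p = 0.027) lost its call without EGFP-negative replicate 1 or 3 or EGFP-positive replicate 1 or 2, and Zfp213 (-0.71, limma adjusted p = 0.017) without EGFP-negative replicate 1, at 0.0503. Zfp930 (-0.81) and Zfp652 (-0.84) passed in every such fit but not with their most variable probe set (limma adjusted p = 0.079 and 0.18).

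**Figure D4:**
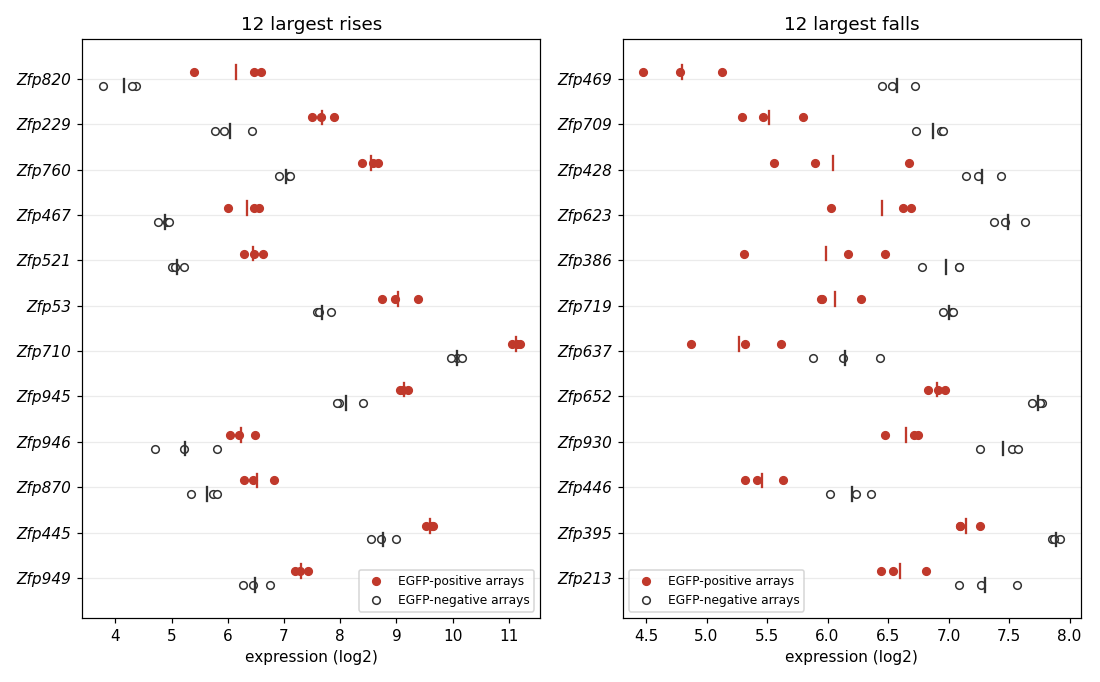
Expression (log2, horizontal axis) of the 12 members with the largest rises (left) and the 12 with the largest falls (right); each point is 1 array, filled red for EGFP-positive and open for EGFP-negative, and the vertical tick is the group's mean. In none of the 24 genes do the groups overlap, and the EGFP-positive points of Zfp820, Zfp428 and Zfp386 are the most spread.

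The role lists are short, and their counts are given beside the 22.6% of all genes above the level that were higher and the 25.2% that were lower, with no test between lists. Of 7 listed genes that guard imprints or silence retroelements, 6 were above the level, 3 rose and 1 fell. Zfp445, which with Zfp57 protects imprinted regions, read 9.63, 9.65 and 9.52 in EGFP-positive arrays, against 8.997, 8.73 and 8.55 in EGFP-negative arrays (0.84, SE 0.13, limma adjusted p = 0.0038), and 0.33 as the mean of its probe sets. Zfp57, which keeps DNA methylation at imprinting control regions, read 6.74, 6.82 and 6.64 in EGFP-positive arrays, against 6.21, 5.94 and 5.95 in EGFP-negative arrays (0.70, limma adjusted p = 0.0038). Zfp809, which silences murine leukaemia viruses through their primer binding site, read 7.78, 7.96 and 7.97 in EGFP-positive arrays, against 7.51, 7.42 and 7.35 in EGFP-negative arrays (0.47, limma adjusted p = 0.0097). These 3 rose without overlap. Zfp568, a KRAB repressor of a placental Igf2 transcript, went the other way, at 6.93, 7.05 and 7.08 in EGFP-positive arrays against 7.62, 7.52 and 7.63 in EGFP-negative arrays (-0.57, limma adjusted p = 0.0033).

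Of 10 listed genes with roles in blood cells or globin control, 9 were above the level, 2 rose and 2 fell, 40.0% of the 10 and near the 47.8% of all genes above the level. Zfp521, given above, was 1 of the risers. Zfp148, a GC-box binding partner of GATA1, was the other (0.30, limma adjusted p = 0.030), but its call was lost on leaving out any 1 array and with other choices of probe set. Zfp652, whose human counterpart binds the corepressor CBFA2T3, read 6.97, 6.83 and 6.91 in EGFP-positive arrays, against 7.69, 7.77 and 7.75 in EGFP-negative arrays (-0.84, SE 0.08, limma adjusted p = 0.00058). Zfp367, named in human cells as an activator of fetal globin, read 7.60, 7.95 and 7.56 in EGFP-positive arrays, against 8.43, 8.30 and 8.28 in EGFP-negative arrays (-0.63, limma adjusted p = 0.011, or 0.14 as the mean of its probe sets). The median of the 10 was 0.07.

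Of 8 genes with ribosomal, translational or RNA roles, 0 rose and 1 fell, with differences between -0.57 and 0.32. The one that fell was Zfp326, part of a complex that couples RNA polymerase II to splicing, at 7.13, 6.85 and 6.71 in EGFP-positive arrays against 7.41, 7.40 and 7.59 in EGFP-negative arrays (-0.57, limma adjusted p = 0.018), and it did not pass without EGFP-negative replicate 1 or 3 or EGFP-positive replicate 2 (up to 0.065). Of 11 measured chromatin, spindle and SUMO factors, which include Zfp280c from outside the numbered symbols, 3 rose and 1 fell. Zfp687 read 8.64, 8.94 and 8.72 in EGFP-positive arrays, against 8.14, 7.91 and 8.31 in EGFP-negative arrays (0.65, limma adjusted p = 0.013). Zfp281, a pluripotency factor that works with NuRD, read 9.81, 10.003 and 9.87 in EGFP-positive arrays, against 9.49, 9.30 and 9.33 in EGFP-negative arrays (0.52, limma adjusted p = 0.0080), but 0.17 with its most variable probe set (limma adjusted p = 0.65). Zfp827 was the remaining riser (0.36, limma adjusted p = 0.033), and Zfp131, a BTB zinc finger protein, the one that fell (-0.56, limma adjusted p = 0.028), its call lost without any EGFP-negative array or EGFP-positive replicate 1.

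Of 19 measured partners through which KRAB zinc finger proteins silence DNA, 3 rose and 6 fell, with a median difference of -0.16. The share called, 47.4%, was that of all genes above the level, 47.8%. Trim28, the scaffold itself, read 8.78, 9.21 and 8.90 in EGFP-positive arrays, against 9.44, 9.37 and 9.45 in EGFP-negative arrays (-0.46, limma adjusted p = 0.034), and its call was lost without any array but EGFP-positive replicate 2, at up to 0.10. Setdb1, the H3K9 methyltransferase, read 7.21, 7.19 and 7.11 in EGFP-positive arrays, against 7.64, 7.71 and 7.48 in EGFP-negative arrays (-0.44, limma adjusted p = 0.013), and was lost without EGFP-negative replicate 1 or 2 (0.055). Uhrf1, which brings Dnmt1 to replicated DNA, fell most, to 10.13 ± 0.07 (SD, n = 3) in EGFP-positive arrays, against 11.71 ± 0.07 in EGFP-negative arrays (-1.58, limma adjusted p = 6.9e-05). Dnmt1 fell too, by 0.64. The risers were Chd3 of the NuRD complex (1.09), Atf7ip, which stabilises Setdb1 (0.85, or 0.49 as the mean of its probe sets), and the histone chaperone Daxx (0.62).

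Over the whole genome, neighbouring members were mixed. With no other gene between them, 80 members fell into 29 runs, 22 of them higher and 8 lower (37.5% called). These 22 include the 10 rises of the chromosome 17 run. Another 138 members stood alone, 27 of them higher and 19 lower (33.3% called). Both shares were under the 47.8% of all genes above the level. Zfp783 is not among the RefSeq protein-coding genes used and was not placed. Of 51 adjacent pairs 24 had the same sign. Both genes were called in 5 pairs, each time in the same direction. All 5 lay inside the chromosome 17 run that was singled out after its values were seen, and none elsewhere. Chromosome 7 held the most members, 51, of which 8 were higher and 4 lower (15.7% and 7.84%, against 23.4% and 22.3% of its 755 other genes). On it, Zfp790, Zfp940 and Zfp420 (0.10, -0.08 and -0.30) and Zfp180, Zfp112 and Zfp235 (-0.11, -0.15 and -0.31) held no call. Zfp383, Zfp74 and Zfp568 held only the fall of Zfp568. Zfp524 rose (0.74, limma adjusted p = 0.0038) beside Zfp865 and Zfp784, which were not called (-0.27 and 0.00). Zfp329 rose (0.51, limma adjusted p = 0.013, or 0.052 without EGFP-negative replicate 2) beside Zfp110 (0.27) and Zfp128 (0.06).

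The runs on other chromosomes were mixed. On chromosome 6, Zfp212 rose (0.41, limma adjusted p = 0.032) between Zfp282 (-0.22) and Zfp956 (-0.62), neither of which passed, and its own call was lost without EGFP-negative replicate 2 or 3 or EGFP-positive replicate 1 or 3. On chromosome 8, Zfp709 fell while Zfp617 rose (0.37, limma adjusted p = 0.014, or 0.061 without EGFP-negative replicate 1), with Zfp882 (0.26) and Zfp961 (0.22) not called, and Zfp866 rose (0.47, limma adjusted p = 0.0082) beside Zfp869 (0.12) and Zfp963 (-0.02). The second run of chromosome 17, Zfp472, Zfp952, Zfp763 and Zfp563, held 1 rise, that of Zfp563, at 7.96, 8.16 and 8.10 in EGFP-positive arrays against 7.15, 7.33 and 7.33 in EGFP-negative arrays (0.80, limma adjusted p = 0.0015). On chromosome 9, Zfp809 rose while Zfp599 (0.28) and Zfp810 (0.48, limma adjusted p = 0.060) did not pass. On chromosome 18, Zfp24, needed for myelination, fell (-0.45, limma adjusted p = 0.011) and Zfp397 and Zfp35 were not called (0.16 and -0.29). Chromosome 13 gave no call among Zfp58, Zfp87 and Zfp748.

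Further probe sets gave another reading of 121 members. Of their 113 other probe sets above 5, 79 had the sign of the chosen one (69.9%, against 81.1% for all genes above the level). Over all genes above the level whose chosen set had been called, 3174 of 3341 others agreed in sign. Of these 3341, 2174 were called in the same direction and 6 in the opposite one. For members whose chosen set had been called, 26 of 30 others agreed in sign, 9 were called in the same direction and 0 in the opposite one. Zfp944 was such a case, its second probe set reading 7.05, 7.21 and 6.62 in EGFP-positive arrays against 6.04, 6.09 and 6.11 in EGFP-negative arrays. Zfp398 was the member with probe sets called both ways. Its chosen set was not called (0.49, limma adjusted p = 0.13), while another read 5.61 ± 0.19 (SD, n = 3) in EGFP-positive and 6.35 ± 0.04 in EGFP-negative arrays (-0.74, limma adjusted p = 0.0063 over probe sets), and a further one read 6.51 ± 0.27 in EGFP-positive and 5.95 ± 0.09 in EGFP-negative arrays (0.56, limma adjusted p = 0.044 over probe sets).

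Promoters of the family were rich in CG dinucleotides. RefSeq gave 218 promoters for 178 of the members. Their median number of CG dinucleotides in the 300 bases was 16, against 7 over all 32851 promoters, and 37.2% held CCGGAA on either strand, against 14.9%. CACGTG, the E-box, was found in 6.88% of member promoters and 7.15% of all promoters, but in 7 of 15 promoters of the chromosome 17 run (46.7%). These lie at 5 places, because the overlapping windows of each head-to-head pair hold the same one, and the 2 pairs are near copies. The motif did not follow the calls. It was in Zfp820, Zfp943, Zfp944 and Zfp946, which rose, and in Zfp942, Zfp994 and Zfp758, which were not called. Zfp53, Zfp52, Zfp948, Zfp983, Zfp760 and Zfp229 rose without it. AGATAA was searched because EVI1 is known to bind sites of that type, and it was in 6.88% of member promoters and 11.2% of all. CCGGAA itself holds a CG and AGATAA holds none, and the median share of G and C was 55.7% in member promoters and 52.7% in all. The motif shares were not set beside promoters of like base content. By response, CCGGAA was in 29.4% of promoters of risers, 24.0% of those of members that fell and 42.3% of those not called. The motifs were searched on both strands; CCGGAA and AGATAA can share 1 base and the other pairs none. They were chosen after sequences of the run had been seen, and a match is a description of letters, not of a factor's binding.

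Zinc finger genes outside the numbered Zfp symbols gave a similar count. Of 43 numbered Zbtb, Zkscan and Zscan genes above the level, 9 were higher and 6 lower in EGFP-positive cells, 34.9% called, with a median difference of 0.02. Of the 85 numbered Zfp genes at or below the level, 3 were higher and 7 lower, 11.8% called, against 11.4% of all genes at that level. All 304 measured numbered Zfp genes together gave 52 higher and 34 lower, 28.3% called, against 33.2% of all 18192 genes, of which 16.0% were higher and 17.2% lower. By probe set type, of the 189 members read by plain probe sets 42 were higher and 26 lower (36.0% called). Of the 30 read by types that can match several transcripts, 7 were higher and 1 lower (26.7% called). With every gene read by plain probe sets only, 35.0% of 203 members were called, against 46.0% of 9430 genes above the level. The share of all genes was not taken for the other types.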

How the data were processed

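Gene expression was measured on 1 Affymetrix array per sample, in 3 EGFP-positive and 3 EGFP-negative samples. The authors deposited log2 values per probe set, made by RMA per the submitters' processing notes (version not given in the sources used here), which quantile-normalises arrays, so a change in total RNA per cell cannot be read. RNA was amplified from the 3' end, per the labels' protocols.

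The table held 45101 probe sets, 64 of them controls; 34945 had 1 gene in GEO's platform annotation, giving 18192 genes. Groups came from sample titles. EGFP-positive minus EGFP-negative was tested by limma 3.58.1 (lmFit, then eBayes without covariates; R 4.3.3), two-sided, with Benjamini-Hochberg adjustment over all genes and a threshold of 0.05, after tests on simulated data. Same-numbered arrays deviated from their group means with correlations of 0.01, -0.01 and 0.00 over genes. No pairing by number was seen in the values, and the main fit used none. Whether same-numbered samples share an origin is not labelled. Between 99 and 300 values were identical in any pair of arrays.

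Members, gene lists, named genes and motifs were chosen with earlier results of these data known. Named were the 12 largest rises and falls past the threshold, the 3 brightest members, those at the level threshold, up to 2 rises and 2 falls per role list (3 for silencing partners, with Trim28 and Setdb1), members with probe sets called both ways and runs of 3 or more neighbours; Zfp667, Zfp827 and members of the longest run outside this rule were added after their values were seen. Members were matched to RefSeq by Entrez identifier (219 of 219). Promoters were aligned globally with Biopython 1.88 (match 1, mismatch -1, gap opening -3, extension -0.5). Figures used matplotlib 3.10.9 under Python 3.11.15. Alternatives covered normalisation, variance model, array weights, probe set choice, level threshold, the genes adjusted over, a replicate block and leaving out each array. The precision is limited by the number of arrays.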

Additional observations from a re-analysis of the deposited data

How the results depend on the processing

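Of the 53 named genes past the threshold, members or silencing partners, 0 changed sign under an alternative; members not named were not followed gene by gene. Among 46 named members past the threshold, 26 kept their call under every alternative, and 32 kept it when any 1 array was left out. Leaving out 1 array gave 33 to 40 members higher, 17 to 28 lower and 22.8 to 30.6% called; the lowest counts, 33, 17 and 22.8%, came without EGFP-negative replicate 1, where 35.4% of all genes above the level were called. The replicate block, which the labels do not back as a pairing, gave 35 higher, 20 lower and 25.1% called, against 38.4% of all genes, and ended the calls of 8 named genes (adjusted p 0.052 to 0.090). The share of calls that were upward stayed between 58.2% and 69.2% under all settings. The members' median moved to 0.082 with arrays shifted to the same median, 0.11 above a level of 6 and 0.17 above a level of 7, where 16 members were lower; these follow from the genes kept or the shift itself. The median of all genes above the level was -0.013 after a further quantile normalisation, 0.012 with shifted arrays, -0.063 with the most variable probe set and 0.023 with no level threshold. With plain probe sets only, 51 of 78 other probe sets above 5 shared the chosen one's sign (65.4%, against 77.7% for all genes above the level). With all types it was 79 of 113 (69.9%), so fewer were compared and the share was also lower. The eBayes trend gave 56 higher and 34 lower, and adjustment over genes above the level 62 and 34. The level threshold of both group means above 5 and the share of upward calls were added after the data were seen. The count of zinc fingers per protein and its wider pattern were not run, since no protein sequences were used here. No member's chosen probe set had an array under the ceiling of the bacterial controls (3.61). Whether nearness to that ceiling limits what dim members can show was not tested.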
